A study of Danio rerio with 24 samples.

Results

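The genes that carry an oocyte through meiotic maturation were followed in the ovaries of adult zebrafish that had been exposed to the herbicide atrazine as embryos. The set was chosen by name and comprised 10 genes: mos, cdk1, ccnb1, ccnb2, aurka, aurkb, plk1, cdc20, fzr1 and pttg1. For each gene, every probe set built on a RefSeq transcript of that gene was taken, and every gene had 1 such target, so that 10 of the 89208 targets on the array were followed. The gene called fzr1 was represented by its copy fzr1a. The females were wild-type fish of the AB strain, and they differed in treatment only: as embryos, between 1 and 72 hpf, they received atrazine at 0 (control), 0.3, 3 or 30 ppb. All groups were reared without atrazine afterwards, were bred weekly for some weeks before dissection, and were 5 to 6 mpf by the labels, while the methods give a wider age range. Total RNA of whole ovarian tissue was hybridized to one-color Agilent arrays, with 6 arrays per treatment and 24 in all, and replicates of a treatment came from groups started on different days.

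A fully grown oocyte waits in prophase of the first meiotic division until a progestin made by its follicle calls it into maturation. In frogs, translation of stored messages for Mos and cyclin B then switches on Cdk1, which with the Polo and Aurora kinases dissolves the nucleus and builds the spindle. Exit from M phase needs the anaphase-promoting complex (APC/C), a ubiquitin ligase steered by Cdc20 or by Fzr1, which marks cyclin B and securin for destruction. In fish and frogs the messages for many of these proteins are stored in the growing oocyte long before they are used. Because these are bulk samples, fewer oocytes and less RNA per oocyte cannot be told apart in any value given here.

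Levels are given as the log2 intensity of a target minus the 75th percentile of the log2 intensities of its own array, so that 0 is that percentile and a step of 1 is a 2-fold difference. The level of a gene depends on its probes, and levels were compared between arrays only, never between genes. All 10 targets had at least 1 probe well above the local background on all 20 arrays of replicates 2 to 6. Not every probe was above it on every array. At 0.3 ppb, 10 of 11 probes of ccnb1 were above it in replicate 3 and 9 of 11 in replicate 6. So were 3 of 4 probes of plk1 at 0.3 ppb and 2 of 3 of fzr1a at 3 ppb, both in replicate 6. The targets were read by 9 probes for mos, 3 for cdk1, 11 for ccnb1, 4 for ccnb2, 3 for aurka, 4 for plk1, 5 for cdc20 and 3 for fzr1a, while aurkb and pttg1 rested on 1 probe each. Some probes were missing on single arrays because their spots were marked as outliers. For mos, 8 of 9 probes remained at 3 ppb in replicates 3, 4 and 6 and at 30 ppb in replicates 2 and 3. For ccnb1, 10 of 11 remained at 30 ppb, and for ccnb2, 3 of 4 at 3 ppb, both in replicate 2. For plk1, 2 of 4 remained at 3 ppb in replicate 6. At 0 and 0.3 ppb every probe was measured.

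Some arrays stood apart from the others, and this was known from earlier results when the comparisons were chosen. The 4 arrays numbered replicate 1 lie on a common slide and were left out: the spots of these arrays correlated by only 0.0146 to 0.0203 with the other arrays at their given positions and by 0.494 to 0.833 once the grid was displaced. Of the remaining 20 arrays, the 0.3 ppb arrays of replicates 3, 5 and 6 went against their tissue label. They correlated by 0.598 to 0.625 with the 0 ppb arrays over all targets, against 0.903 to 0.973 for the other 17 arrays. A list of 10 targets of brain genes had medians of 7.27 to 7.36 relative to the median 0 ppb array on these 3 arrays, and a list of 11 targets of oocyte genes had medians of -8.60 to -7.89, with 10 or 11 of the oocyte targets still above background. On the other 17 arrays the oocyte list stayed between -0.28 and 0.34, and the brain list between -0.31 and 1.51. The brain list was highest there in replicates 5 and 6 at 0, 3 and 30 ppb, at 0.83 to 1.51. The 0.3 ppb arrays of replicates 3, 5 and 6 are called the 3 unlike arrays. Results at 0.3 ppb are given array by array, and with and without these 3 arrays. Between 67.5% and 87.9% of probes were well above background on the 20 arrays, except for 40.6% on the 3 ppb array of replicate 6. The extraction software rated the grid as poor on that array and on the 30 ppb array of replicate 2.

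**Figure D1:**
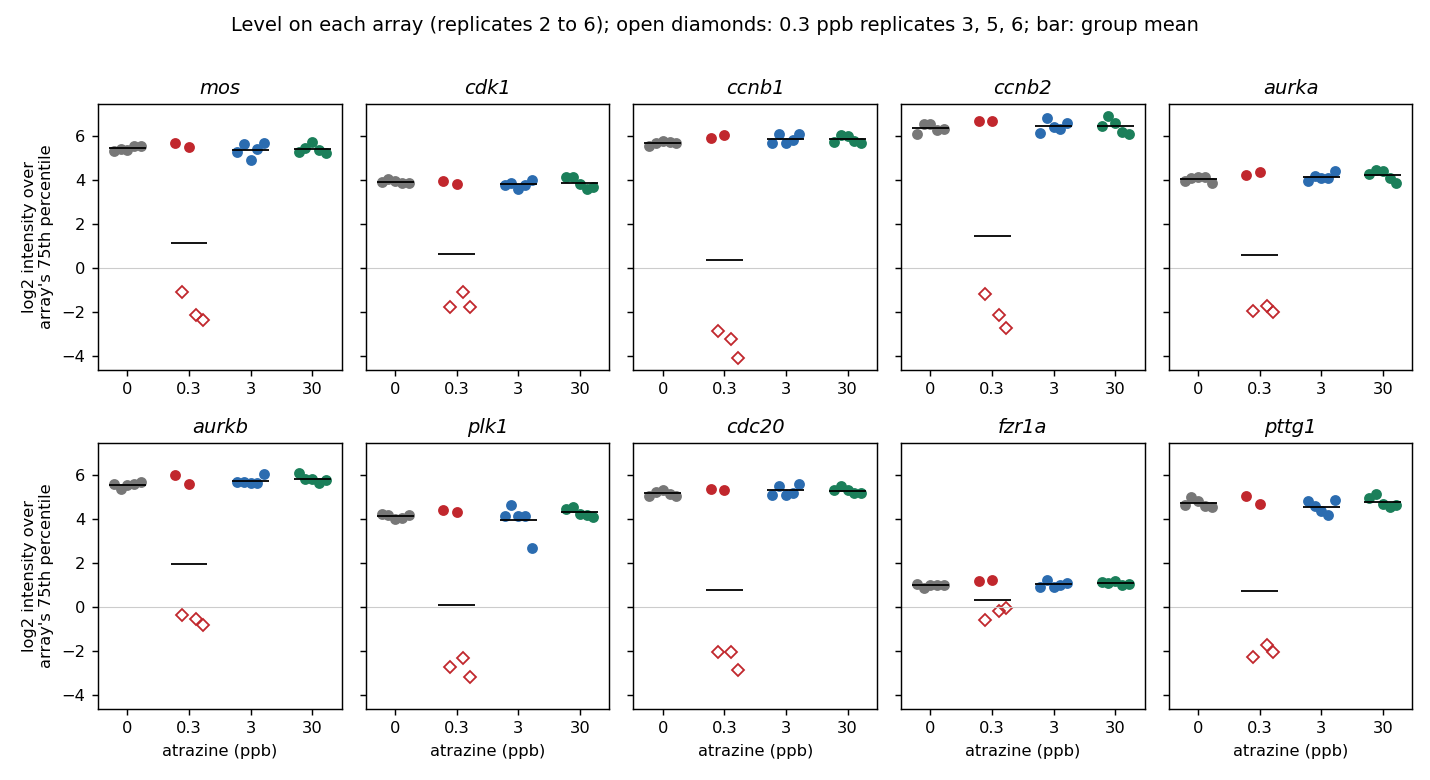
Level of each of the 10 genes on each array (log2 intensity minus the array's 75th percentile) by atrazine dose in ppb, with points for replicates 2 to 6 in order from left to right and a bar for the group mean. The 0.3 ppb arrays of replicates 3, 5 and 6 (open diamonds) lie far below every other array for 9 genes and by less for fzr1a, and the groups at 0, 3 and 30 ppb overlap for all 10 genes.

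In control ovaries the levels of the 10 genes varied little between females. The SD over the 5 arrays at 0 ppb was 0.06 for fzr1a, 0.07 for cdk1, 0.08 for ccnb1, 0.10 for mos and plk1, 0.12 for cdc20, 0.13 for aurka and aurkb, 0.18 for pttg1 and 0.19 for ccnb2. These spreads correspond to less than the 1.5-fold difference that was set as the smallest difference to be counted.

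The first comparison asked how the genes differed at 0.3 ppb. In replicates 3, 5 and 6 of the 0.3 ppb group the levels of 9 of the 10 genes were far lower than in control ovaries, while fzr1a was lower by much less. On the 0.3 ppb arrays of replicates 2 and 4 all 10 genes lay close to the controls. The oocyte list was low on the same 3 arrays, at -8.60 to -7.89. Replicates 2 and 4 had received the same dose, and their oocyte list stood at 0.19 and 0.19. Their median differences over the 10 genes from the same-numbered controls were 0.34 and 0.15. At 0.3 ppb the lower levels were thus seen where the oocyte list was low, and not on every array of that dose. The part of the tissue in these differences was not tested.

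The genes mos, cdk1, ccnb1 and ccnb2 are considered first. The kinase Mos, which starts the MAP kinase cascade of the maturing oocyte, had mos levels of 5.71, -1.09, 5.52, -2.13 and -2.35 on the 0.3 ppb arrays of replicates 2 to 6, against 5.34, 5.43, 5.39, 5.58 and 5.56 at 0 ppb. The catalytic kinase of M phase, cdk1, had levels of 3.95, -1.76, 3.81, -1.08 and -1.75 at 0.3 ppb, against 3.91, 4.04, 3.96, 3.86 and 3.90 at 0 ppb. For both genes the arrays of replicates 3, 5 and 6 were low and the other 2 lay among or next to the controls, so that the groups overlapped. The cyclin ccnb1, a partner that Cdk1 needs for activity, had levels of 5.95, -2.86, 6.05, -3.24 and -4.08 at 0.3 ppb, against 5.58, 5.68, 5.80, 5.75 and 5.70 at 0 ppb. Its relative ccnb2 had levels of 6.69, -1.19, 6.72, -2.14 and -2.74 at 0.3 ppb, against 6.13, 6.58, 6.55, 6.29 and 6.33 at 0 ppb. The cyclins showed the largest differences of the 10 genes on these arrays: relative to the 0 ppb array of the same number, ccnb1 differed by -8.55, -8.98 and -9.78 on replicates 3, 5 and 6, and ccnb2 by -7.76, -8.43 and -9.07.

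The other M-phase kinases were low on the same arrays. The spindle pole kinase aurka had levels of 4.22, -1.93, 4.37, -1.71 and -1.98 at 0.3 ppb, against 3.98, 4.10, 4.17, 4.16 and 3.87 at 0 ppb. The kinase of the chromosomal passenger complex, aurkb, had levels of 6.01, -0.35, 5.60, -0.55 and -0.80 at 0.3 ppb, against 5.61, 5.37, 5.54, 5.63 and 5.69 at 0 ppb. Polo-like kinase 1, plk1, which helps to activate Cdk1 and the APC/C, had levels of 4.43, -2.73, 4.35, -2.31 and -3.18 at 0.3 ppb, against 4.23, 4.20, 3.99, 4.05 and 4.18 at 0 ppb. Differences from the same-numbered control on replicates 3, 5 and 6 were -6.03, -5.87 and -5.85 for aurka, -5.72, -6.18 and -6.50 for aurkb and -6.92, -6.36 and -7.36 for plk1.

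The genes of M-phase exit did not move alike. The activator cdc20, which turns the APC/C on at anaphase, had levels of 5.40, -2.02, 5.33, -2.07 and -2.84 at 0.3 ppb, against 5.08, 5.24, 5.35, 5.15 and 5.05 at 0 ppb. The securin gene pttg1, whose product holds back separase, had levels of 5.05, -2.25, 4.72, -1.73 and -2.05 at 0.3 ppb, against 4.66, 5.00, 4.84, 4.60 and 4.57 at 0 ppb. The second APC/C activator, fzr1a, had levels of 1.18, -0.58, 1.22, -0.19 and -0.06 at 0.3 ppb, against 1.03, 0.89, 0.99, 1.02 and 1.01 at 0 ppb. Fzr1 keeps the APC/C active outside M phase, and in mammals it is also known from neurons, which no longer divide. On replicates 3, 5 and 6 the differences from the same-numbered control were -7.27, -7.21 and -7.89 for cdc20 and -7.25, -6.33 and -6.62 for pttg1. For fzr1a they were -1.47, -1.21 and -1.07, so that on each of these arrays fzr1a had the smallest difference of the 10 genes.

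**Figure D2:**
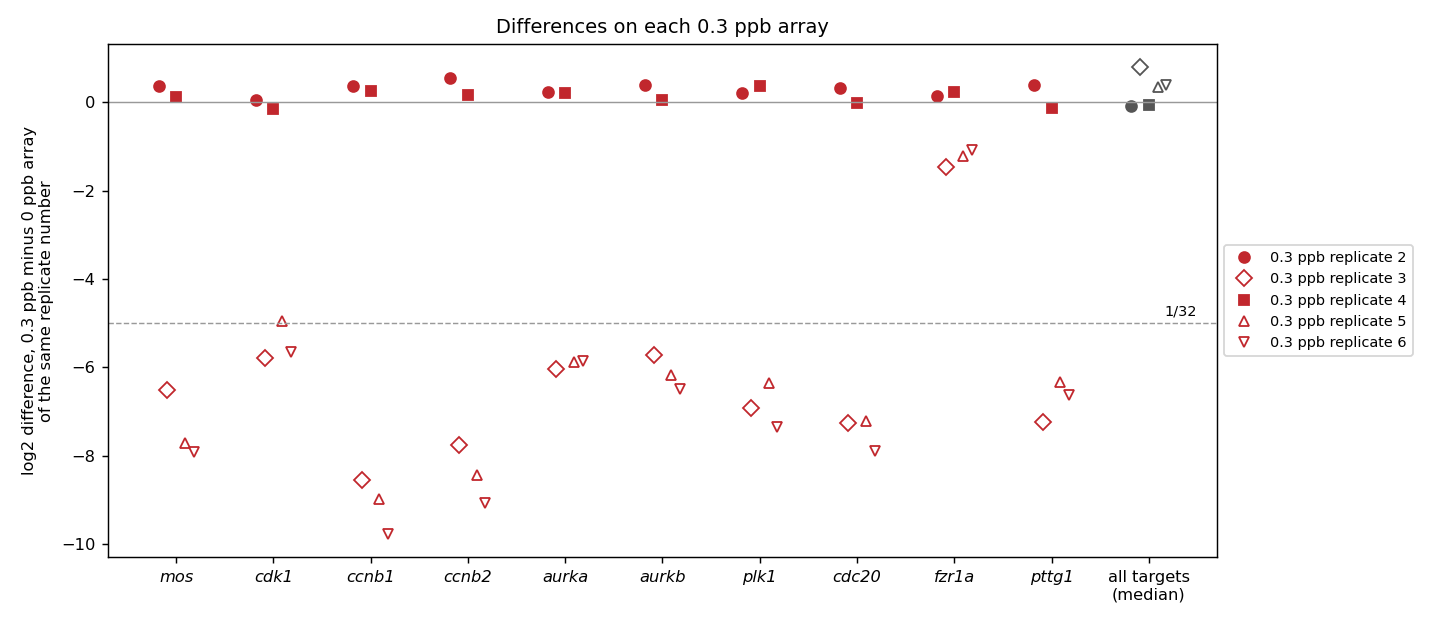
Difference in level between each 0.3 ppb array and the 0 ppb array of the same number (log2) for the 10 genes and, at the right, for the median of all targets, with open symbols for replicates 3, 5 and 6 and a dashed line at a 32-fold lower level. On these 3 arrays 8 or 9 of the 10 genes lie below the dashed line, and on replicates 2 and 4 all 10 genes lie between -0.14 and 0.56.

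A level at least 32-fold lower than in the same-numbered control was seen for 9, 8 and 9 of the 10 genes on replicates 3, 5 and 6, and for 2.42%, 2.02% and 2.55% of all targets. All targets were not matched to the 10 genes for level in controls, and a target nearer to background has less room for a 32-fold fall. The median difference of the 10 genes on these arrays was -6.72, -6.35 and -6.99, while that of all targets was 0.79, 0.35 and 0.39. On replicates 2 and 4 the median over the 10 genes was 0.34 and 0.15 and that over all targets was -0.08 and -0.05. A list of 10 targets of dividing cells, mostly replication genes, had medians of -5.03 to -4.40 relative to the median 0 ppb array on replicates 3, 5 and 6.

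Over all 5 pairs of arrays the test of the 0.3 ppb group, limma's moderated test with Benjamini-Hochberg adjustment over 73379 targets, called 0 of the 10 genes, against 0.00136% of all targets (1 target). A call required an adjusted p below 0.05 and a difference of at least 1.5-fold. With the fold and an unadjusted p below 0.05 the test counted 9 of the 10 genes, all lower, against 18.8% of all targets. The log2 fold changes of these 9 genes lay between -5.34 ± 2.03 (SE) for ccnb1 and -3.30 ± 1.19 for cdk1 and the adjusted p was 0.265 for each, and fzr1a had -0.67 ± 0.44 with an adjusted p of 0.364. All 10 genes had lower means at 0.3 ppb, with a median log2 fold change of -4.0, while 60.4% of all targets were higher, with a median of 0.29. The range of levels at 0.3 ppb overlapped that at 0 ppb for all 10 genes, as it ran from the unlike arrays up to replicates 2 and 4. Single 0.3 ppb levels need not lie inside the control range, and the share of all targets with such an overlap was not counted. Every probe of every member was lower at 0.3 ppb, with mean differences between -6.14 and -4.82 over the 11 probes of ccnb1, for example, and between -0.84 and -0.57 over the 3 probes of fzr1a.

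Without the 3 unlike arrays the picture at 0.3 ppb was different. The median log2 fold change of the 10 genes was 0.22 in a fit of the remaining 2 arrays and the 5 controls, and 9 genes had a value above 0, from 0.15 for pttg1 to 0.33 for ccnb2. The exception was cdk1 with -0.05. None of the 10 genes was called, against 0.00412% of all targets (3 of 72796), and none passed the fold with an unadjusted p below 0.05, against 5.23% of all targets. The adjusted p lay between 0.789 and 0.925. Of all targets only 29.5% were higher in this fit, with a median of -0.37. This fit sets replicates 2 and 4 against all 5 controls, and against their own same-numbered controls 44.3% and 45.9% of all targets were higher, with 10 and 7 of the 10 genes higher.

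Several regulators in the pathway exist as copies, and the copies did not all move alike on the 3 arrays. Arpp19 and Ensa, once phosphorylated, are known from frogs to keep the phosphatase that opposes Cdk1 switched off. On the 0.3 ppb arrays of replicates 3, 5 and 6, arpp19b differed by -2.81, -2.37 and -2.29 from the same-numbered control, and arpp19a by 2.81, 2.67 and 3.37. Likewise ensaa differed by -1.07, -0.91 and -1.44, and ensab by 2.93, 3.27 and 2.99. Thus in both pairs of copies 1 copy was lower and the other higher on every one of these arrays. For the survivin genes of the chromosomal passenger complex both copies were low: birc5a differed by -4.78, -3.49 and -4.95 and birc5b by -7.67 and -11.15 on replicates 3 and 5, and birc5b was not well above background on replicate 6. For the membrane progestin receptors, paqr7b differed by 5.22, 4.08 and 4.00, and paqr7a, whose controls spread from -4.61 to -2.12, by 1.78, 0.14 and 0.19. The 8 pairs of copies in the lists are plotted, and the arpp19, ensa, birc5 and paqr7 pairs were picked for the text after their values had been seen.

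**Figure D3:**
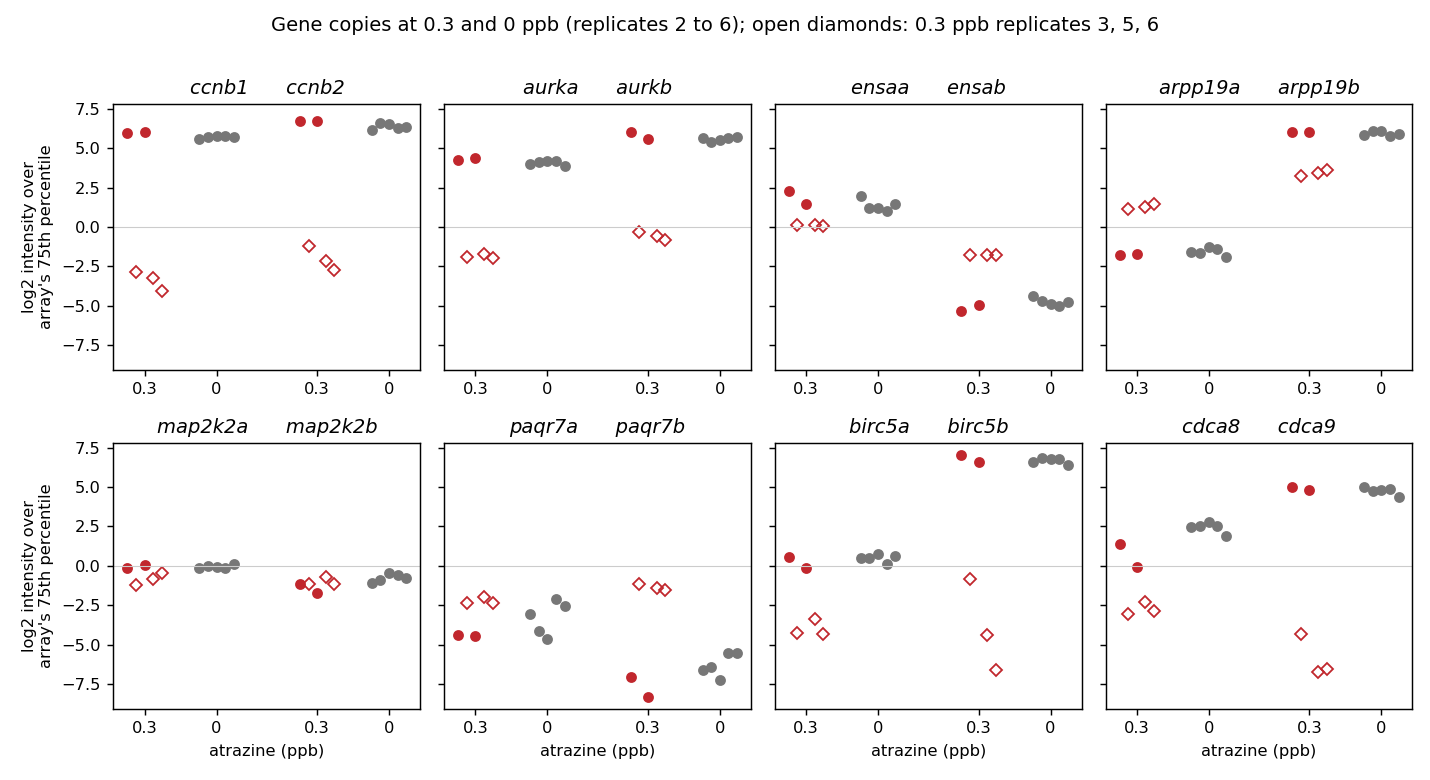
Level (log2 intensity minus the array's 75th percentile) of 8 pairs of gene copies on the 0.3 ppb arrays (left of each pair of columns) and the 0 ppb arrays (right), with replicates 2 to 6 in order and open diamonds for the 0.3 ppb arrays of replicates 3, 5 and 6. Both copies are low on these arrays for ccnb1 and ccnb2, aurka and aurkb, birc5a and birc5b, and cdca8 and cdca9, whereas arpp19a and ensab lie above their controls and arpp19b and ensaa below theirs.

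The second comparison asked whether embryonic exposure to 3 or 30 ppb altered the genes in the adult ovary. The limma test over 73370 targets called 0 of the 10 genes at either dose, with adjusted p of 1.00 for all. Of all targets 0.00136% (1 target) was called at 3 ppb and 0% at 30 ppb. With the fold and an unadjusted p below 0.05 none of the 10 genes was counted at either dose, against 1.87% of all targets (1374) at 3 ppb and 1.25% (917) at 30 ppb. At both doses the range of every one of the 10 genes overlapped with that of its controls, and the share of all targets that did so was not counted.

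The gene mos had levels of 5.29, 5.65, 4.92, 5.41 and 5.70 at 3 ppb and 5.28, 5.49, 5.75, 5.39 and 5.25 at 30 ppb in replicates 2 to 6. Its means at 0, 3 and 30 ppb were 5.46 ± 0.10, 5.39 ± 0.31 and 5.43 ± 0.20 (SD, n = 5 each), and its log2 fold changes were -0.07 and -0.03 (SE 0.18 for both) at 3 and 30 ppb. The gene was thus higher in some pairs and lower in others, with 2 of 5 pairs higher at each dose. For cdk1 the levels were 3.79, 3.89, 3.62, 3.80 and 4.00 at 3 ppb and 4.17, 4.15, 3.82, 3.63 and 3.69 at 30 ppb, and its log2 fold changes were -0.11 and -0.04 (SE 0.16). At 30 ppb cdk1 lay above its controls in replicates 2 and 3 and below them in the other 3.

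The levels of ccnb1 were 5.69, 6.10, 5.68, 5.85 and 6.10 at 3 ppb, while they were 5.75, 6.08, 6.01, 5.81 and 5.72 at 30 ppb. The log2 fold changes of ccnb1 were 0.18 and 0.17 (SE 0.16), and the gene was higher in 4 of 5 pairs at 3 ppb and in 5 of 5 at 30 ppb, where the differences ran from 0.02 to 0.40. All 11 of its probes had higher means at both doses, but these probes read the same 5 pairs of ovaries. How many of all targets were higher in 5 of 5 pairs was not counted. For ccnb2 the levels were 6.17, 6.83, 6.42, 6.35 and 6.60 at 3 ppb and 6.47, 6.91, 6.63, 6.22 and 6.13 at 30 ppb, with log2 fold changes of 0.10 at both (SE 0.19).

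The levels of aurka were 3.96, 4.21, 4.12, 4.12 and 4.42 at 3 ppb and 4.29, 4.48, 4.42, 4.12 and 3.90 at 30 ppb, giving log2 fold changes of 0.11 and 0.19 (SE 0.16). At 3 ppb aurka was higher in only 2 of 5 pairs, and its log2 fold change was -0.0024 without replicate 6. The 3 ppb array of replicate 6 had the lowest share of probes above background, but all 3 probes of aurka were measured and well above it there. The levels of aurkb were 5.71, 5.68, 5.65, 5.67 and 6.06 at 3 ppb and 6.09, 5.85, 5.82, 5.67 and 5.78 at 30 ppb. It was the only one of the 10 genes that was higher in 5 of 5 pairs at both doses, with differences of 0.04 to 0.36 at 3 ppb and 0.04 to 0.48 at 30 ppb. The share of all targets higher in 5 of 5 pairs was not counted, while 59.5% and 63.8% of all targets had higher means at 3 and 30 ppb. The highest level of aurkb at 3 ppb, 6.06, was that of replicate 6 and lay far from the others. Both doses were set against the same control arrays, so the pairs are not independent. The log2 fold changes of aurkb were 0.18 and 0.27 (SE 0.15), with unadjusted p of 0.247 and 0.0955 and adjusted p of 1.00 (limma), and they rest on 1 probe.

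The values of plk1 turned on a single array. Its levels were 4.16, 4.64, 4.14, 4.16 and 2.71 at 3 ppb and 4.49, 4.57, 4.24, 4.20 and 4.09 at 30 ppb, so that replicate 6 at 3 ppb differed from its control by -1.47. On that array 2 of the 4 probes of plk1, the brighter ones, had been marked as outliers by the extraction software, and the level there is the mean of the 2 dimmer probes. Each of the 4 probes taken alone had a higher mean at 3 ppb, by 0.07 to 0.24. The log2 fold change at 3 ppb was -0.16 ± 0.29 (SE) with all probes and 0.22 ± 0.17 with those measured on every array. At 30 ppb it was 0.19 ± 0.29 with all probes and 0.23 ± 0.17 with those measured on every array.

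Of the genes of M-phase exit, cdc20 had levels of 5.13, 5.51, 5.11, 5.21 and 5.61 at 3 ppb and 5.33, 5.50, 5.34, 5.18 and 5.19 at 30 ppb, for log2 fold changes of 0.14 and 0.13 (SE 0.16). For fzr1a the levels were 0.90, 1.22, 0.93, 1.01 and 1.12 at 3 ppb and 1.12, 1.12, 1.20, 1.00 and 1.05 at 30 ppb, and its log2 fold changes were 0.05 and 0.11 (SE 0.14). For pttg1 the levels were 4.84, 4.59, 4.36, 4.19 and 4.86 at 3 ppb, while they were 4.96, 5.16, 4.69, 4.57 and 4.65 at 30 ppb. The log2 fold changes of pttg1 were -0.17 and 0.07 (SE 0.19), and at 3 ppb it differed from its control by -0.40, -0.48 and -0.41 in replicates 3, 4 and 5 and lay above it in replicates 2 and 6.

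**Figure D4:**
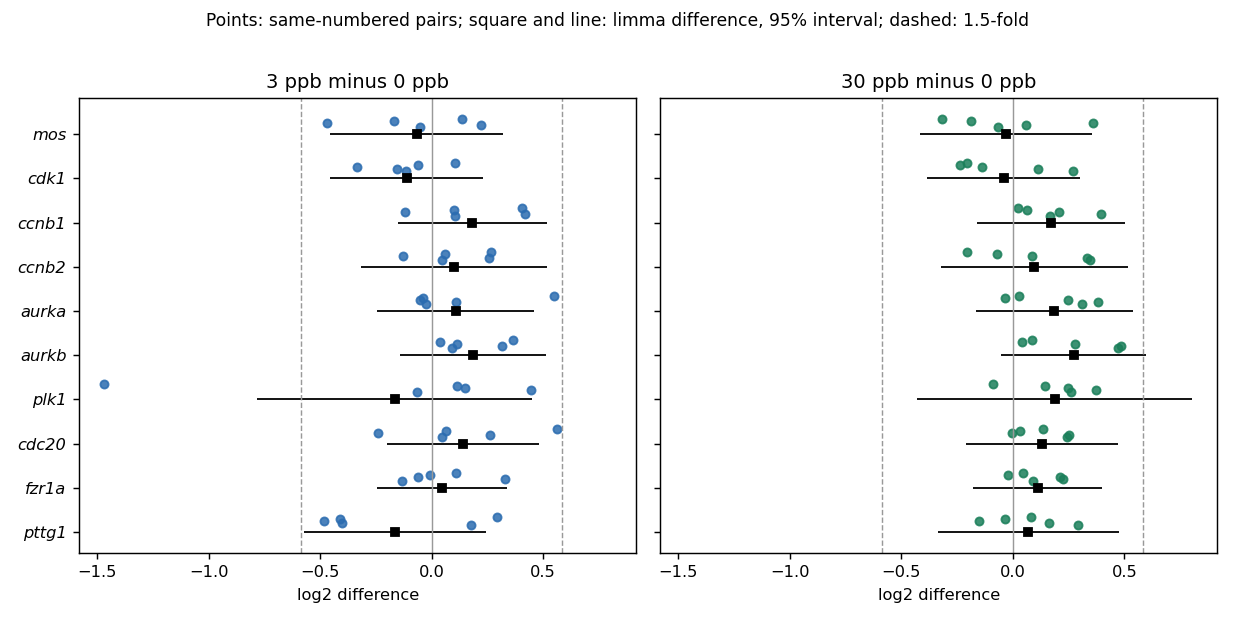
Differences of each gene at 3 ppb (left) and 30 ppb (right) from 0 ppb on the log2 scale, with a point for each same-numbered pair of arrays, a square for the limma difference and a line for its 95% interval. Dashed lines mark 1.5-fold differences, and 9 of the 10 intervals at 3 ppb and 8 of the 10 at 30 ppb lie between them.

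The width of the intervals shows what difference could have been missed. The 95% interval of the difference lay within 1.5-fold in either direction for 9 of the 10 genes at 3 ppb, all but plk1, and for 8 of the 10 at 30 ppb, all but plk1 and aurkb. The interval of aurkb at 30 ppb ran from -0.05 to 0.60, and that of plk1 at 3 ppb ran from -0.78 to 0.45. The plk1 intervals at both doses use a common estimate of spread, which takes in the 3 ppb array of replicate 6.

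The 10 genes had a median log2 fold change of 0.07 at 3 ppb and 0.12 at 30 ppb, and the median over all targets was 0.07 and 0.09. Of the 10 genes, 6 were higher at 3 ppb and 8 at 30 ppb, beside 59.5% and 63.8% of all targets. These counts depend on probes missing on single arrays. With the probes measured on every array, plk1 at 3 ppb went from -0.16 to 0.22. In the same fit mos at 30 ppb went from -0.03 to 0.03. The small positive values were not spread evenly over the arrays. The median difference of the 10 genes from the same-numbered control was 0.26 and 0.28 for replicates 3 and 6 at 3 ppb and 0.26, 0.29 and 0.21 for replicates 2, 3 and 4 at 30 ppb. In the other 5 arrays it lay between -0.12 and 0.03. The median over all targets was 0.11 and 0.30 on the 3 ppb arrays of replicates 3 and 6 and 0.16 and 0.27 on the 30 ppb arrays of replicates 2 and 3, where 2.70%, 10.4%, 5.81% and 4.40% of spots were marked as outliers, against 0.25% to 1.16% on the other 6 arrays at these doses. The 30 ppb array of replicate 4 belongs to these 6: its members' median of 0.21 stood beside a median over all targets of 0.06 and 0.51% of spots marked as outliers. The part of array quality in the members' values was not tested.

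Across the 15 arrays at 0, 3 and 30 ppb, 8 further genes had profiles most like the mean profile of the 10 genes. They were gps1, gapdh, tuba8l4, wdr75, rae1, esco2, atp5po and mad2l1, with a Pearson r between 0.932 and 0.954 among 13276 targets screened. The list is a description, and the points share slides, spot quality and the scaling of each array. The mean profile includes the plk1 level of 2.71 on the 3 ppb array of replicate 6, which rests on 2 of 4 probes. How far this level set the ranking was not tested.

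The remaining genes of the pathway were read from a list of 98 genes, of which 85 had 87 targets in the fit. None of the 87 was called at any dose. With the fold and an unadjusted p below 0.05, 1 was higher and 1 lower at 3 ppb and none at 30 ppb, against 1.87% and 1.25% of all targets. At 0.3 ppb 2 were higher and 43 lower, against 18.8% of all targets in either direction. At 3 ppb 63 of the 87 targets had higher means and at 30 ppb 72, with medians of 0.10 and 0.12. Over all targets 59.5% and 63.8% had higher means at these doses, with medians of 0.07 and 0.09.

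Among 26 targets of cyclins, Cdk regulators and transcription factors of M phase, 22 had higher means at 3 ppb and 22 at 30 ppb, beside the 59.5% and 63.8% of all targets. The oocyte Wee1-type kinase wee2, which in mice holds Cdk1 inactive before maturation, had 2 targets with log2 fold changes of 0.05 and 0.04 at 3 ppb, and of 0.17 and 0.02 at 30 ppb. The gene ccna1, known in mice as the cyclin A of the germ line, had -0.07 and 0.07. The median of these 26 targets on the 3 unlike arrays was -4.01 to -3.95 relative to the median 0 ppb array.

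Among 16 targets of the spindle checkpoint, the passenger complex and the kinetochore, 10 had higher means at 3 ppb and 14 at 30 ppb, beside the same 59.5% and 63.8% of all targets. The checkpoint gene mad2l1, whose product holds Cdc20 inactive, had 0.03 and 0.16, and the spindle motor gene kif11 had 0.10 and 0.21. At 0.3 ppb 16 of these 16 targets had lower means, each with an unadjusted p below 0.05, against 18.8% of all targets past that p and the fold. Their median on replicates 3, 5 and 6 was -5.66 to -4.89 relative to the median 0 ppb array.

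The 18 targets of the APC/C and its inhibitors had medians of -2.17 to -1.71 on the 3 unlike arrays. The inhibitor fbxo43 (Emi2), which in frogs and mice arrests the mature egg in metaphase, differed by -7.11, -7.86 and -8.26 there and its relative fbxo5 (Emi1) by -5.70, -7.04 and -7.40. The core subunit anapc11 differed by -1.87, -1.70 and -1.32. At 3 and 30 ppb the log2 fold changes were 0.04 and 0.12 for fbxo43, 0.04 and 0.13 for fbxo5, and 0.15 and 0.10 for anapc11.

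Of the Mos and MAP kinase arm with its translation regulators (15 targets), pabpc1l, known in frogs as a poly(A)-binding protein of oocytes, differed by -8.90, -9.87 and -10.25 on replicates 3, 5 and 6 at 0.3 ppb. The messenger-binding protein gene ybx1 had 2 targets that differed by no more than 0.63 from their controls on these arrays. For the 5 targets of separase and cohesin the median there was -1.41 to -0.71 relative to the median 0 ppb array, with differences of -5.07 to -4.95 for rad21l1, known in mice as a cohesin subunit of meiosis, and 0.05, 0.17 and 0.30 for smc3, which all dividing cells use. The 7 targets of progestin receptors had medians between -0.50 and 0.14 there, and pgrmc1 and pgrmc2 had log2 fold changes of 0.34 and 0.11 at 3 ppb and 0.40 and 0.14 at 30 ppb.

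**Figure D5:**
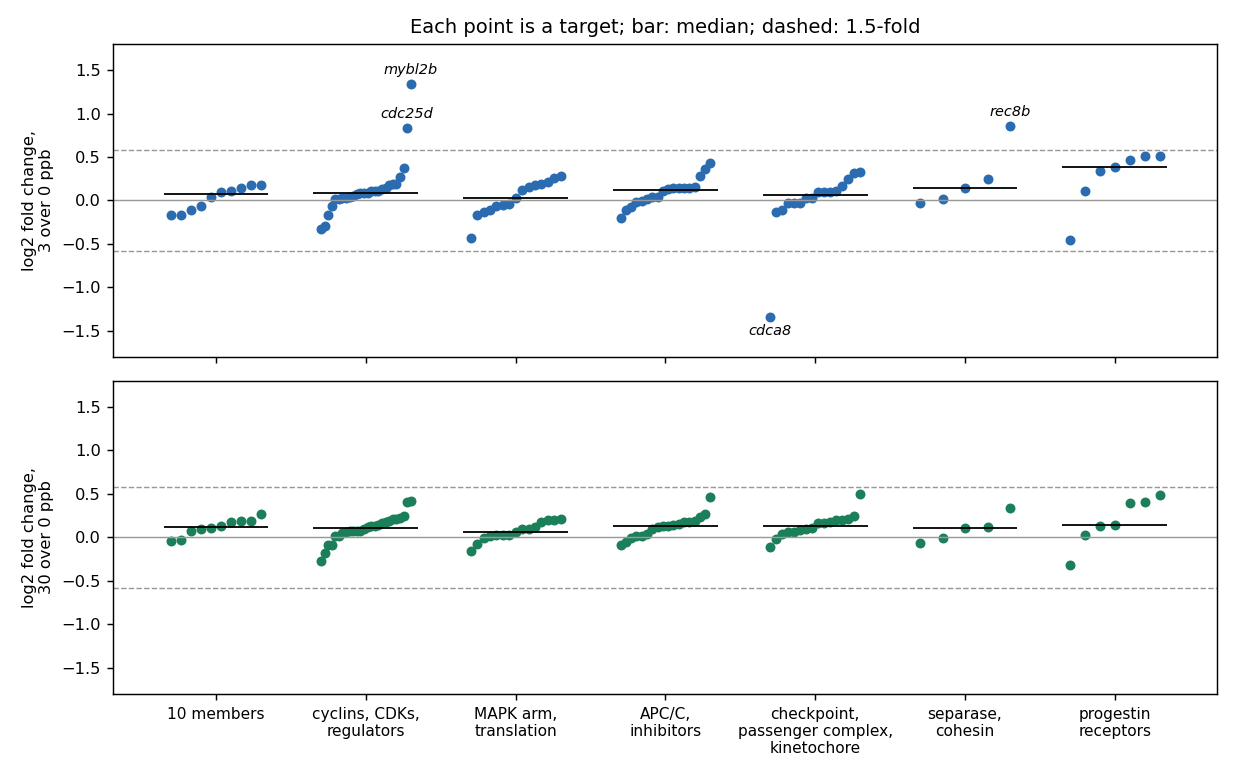
Log2 fold change at 3 ppb (upper) and 30 ppb (lower) over 0 ppb for the 10 genes and for the 6 groups of the pathway list, with a point for each target and a bar for the median. Dashed lines mark 1.5-fold, and mybl2b, cdca8, rec8b and cdc25d are the 4 targets outside them at 3 ppb, with none at 30 ppb.

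The pathway targets with the greatest log2 fold changes at 3 ppb were mybl2b, cdca8 and rec8b, and at 30 ppb birc5a, pgr and cdc27. The gene mybl2b, a transcription factor that drives genes of M phase, had levels of 1.67, -0.19, 0.32, -0.10 and 1.87 in controls, 1.82, 2.13, 1.91, 2.08 and 2.32 at 3 ppb, and 0.03, 2.19, 1.82, 1.73 and -0.20 at 30 ppb. Its levels thus lay near 2 or near 0 in the control and 30 ppb groups and near 2 on every 3 ppb array, with a log2 fold change of 1.34 ± 0.52 (SE) at 3 ppb and an unadjusted p of 0.0222. Not all of its probes were measured on every array, and with the probes measured on all arrays the value was 0.81 ± 0.31. How far missing probes moved the level on single arrays was not tested. The passenger complex gene cdca8 (borealin) had levels of 2.47, 2.50, 2.76, 2.51 and 1.93 in controls, -0.38, 1.76, 0.07, 1.96 and 2.03 at 3 ppb, and 2.24, 2.31, 2.48, 2.85 and 2.58 at 30 ppb. It was low in replicates 2 and 4 at 3 ppb, with a log2 fold change of -1.34 ± 0.43 and an unadjusted p of 0.00747. Its probes too were not all measured on every array. With the probes measured on all arrays its value was -1.25 ± 0.49, with an unadjusted p of 0.0229 (limma). The gene cdca8 was also low on the 0.3 ppb array of replicate 4, at -0.07. For both genes the adjusted p was 1.00 (limma). The meiotic cohesin gene rec8b had 0.85 ± 0.72 at 3 ppb. At 30 ppb birc5a had 0.50 ± 0.20 with an unadjusted p of 0.0256, the nuclear progestin receptor gene pgr had 0.48 ± 0.31, and the APC/C subunit gene cdc27 had 0.47 ± 0.28.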

How the data were processed

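The authors labeled total RNA with Cy3, hybridized each sample to its own array and read the spots with Agilent Feature Extraction 11.5. The deposited intensity of each spot is background-subtracted and not normalized between arrays. No genome build is named in the sources used here.

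The log2 intensity (floor 1) minus the 75th percentile of unmarked, non-control spots on that array was used, and spots marked as outliers were dropped. The software's marks come from the deposited columns. A probe was kept if well above background on 5 or more of 20 arrays, and spots of a probe and probes of a target were averaged (73379 of 89208 targets). Names came from RefSeq accessions, of which 13710 of 15090 had a symbol. R 4.3.3 (limma 3.58.1, and data.table of version 1.17.8) was used to fit the 0.3 and 0 ppb arrays (10) and the 0, 3 and 30 ppb arrays (15) of replicates 2 to 6, with Benjamini-Hochberg adjustment and at least 2 values per group. The script was tested on simulated data. Plots used matplotlib 3.10.9 with numpy 2.4.6 and pandas 2.3.3 in Python 3.11.15.

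The members, gene lists and tests were chosen with earlier results of these data known. Named beside the members were, from the pathway list, the 3 targets with the greatest absolute log2 fold change at 3 and at 30 ppb and examples by intensity in each group. Listed genes without a target, such as wee1 and espl1, were not analysed here.

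By the methods, replicates are groups begun on different days, each number lies on a slide of its own, and treatment is tied to the position on the slide. Deviations from the group means correlated by over 0.1 in 14 of 15 same-numbered pairs (median 0.411), against a median of -0.310 over 60 other pairs. As deviations sum to 0 within each group, these medians depend on each other. The numbers thus pair the arrays, but the parts of starting day and slide cannot be told apart. The main fits and their intervals take no account of this pairing, and the block on replicate number was an alternative. Slides were scanned in 3 sessions, each with all treatments. The other alternatives were quantile normalization, normexp on the median pixel signal with offset 50, other filters, the median over probes, a single fit of all groups, replicate 1 included, each replicate left out, arrays left out, no fold threshold and the methods' analysis of variance with Tukey's test. Keeping only probes measured on all arrays was added after the data were seen. A log2 fold change was counted as reversed where its sign turned and the main or the alternative value exceeded its SE.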

Additional observations from a re-analysis of the deposited data

Results flagged for a closer look

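The 5 arrays of each dose were compared for each of the 10 genes, which gave 40 groups, and 2 of them held an array far from the others by Dixon's test, a share of the size that chance gives (about 1 group in 20). Both were the 3 ppb array of replicate 6, on which 40.6% of probes were well above background and 10.4% of spots were marked as outliers. The level of plk1 there was 2.71, against 4.14 for the nearest array, and 2 of its 4 probes were missing. The level of aurkb there was 6.06, against 5.71 for the nearest array, and it rests on 1 probe. The part of the array's quality in these values was not tested.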

How the results depend on the processing

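At 3 and 30 ppb 0 of the 10 genes were called under every alternative run. At 0.3 ppb 0 were called under the alternatives of limma, with a lowest adjusted p of 0.0569. The methods' analysis of variance and Tukey's test without adjustment called 9 of the 10 genes, beside 11356 of all targets. After Benjamini-Hochberg adjustment these tests called 0 of the 10 genes, beside 2 of all targets. In the main limma fit 9 genes passed the fold with an unadjusted p below 0.05, against 18.8% of all targets. The count became 10 with all groups in 1 fit and 4 with replicate 1 included. With single replicates left out it was 0 to 9 (0 without replicate 3, 5 or 6). The share of all targets was not counted in these alternatives. Without the 0.3 ppb arrays of replicates 3, 5 and 6 the count was 0, against 5.23% of all targets. Without these 3 arrays the median became 0.22 and 9 genes turned to higher values: aurka 0.24, plk1 0.26, pttg1 0.15, ccnb1 0.30, ccnb2 0.33, fzr1a 0.21, mos 0.16, aurkb 0.23 and cdc20 0.19. With replicate 1 included the median at 3 ppb became -0.13, ccnb1 became -0.31 and fzr1a -0.83 at 3 ppb, and ccnb1 -0.072 and fzr1a -0.91 at 30 ppb. Replicate 1 is the slide whose spots correlated by only 0.0146 to 0.0203 with the other arrays at their given positions. Keeping only probes measured on all arrays turned plk1 at 3 ppb to 0.22. This step leaves out the 2 brighter plk1 probes, which were missing on the 3 ppb array of replicate 6. The causes of the other changes were not tested.

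Over all targets the 1 call at 0.3 ppb became 4 with quantile normalization, 3 with normexp, 3 with all groups in 1 fit, 2 with the strict filter, 0 with the replicate block, 0 with replicate 1, 3 without the 3 arrays, 0 to 87 with single replicates left out, 11356 by the methods' tests and 2 after their adjustment. The 1 call at 3 ppb became 0 with quantile normalization, normexp, the replicate block, all groups in 1 fit, replicate 1, no poor grids, complete probes or the adjusted analysis of variance, 0 to 4 with single replicates left out and 111 by the methods' tests. At 30 ppb 0 calls became 1 with the strict filter, 1 without poor grids, 0 to 4 with single replicates left out and 57 by the methods' tests. The replicate block changed no call of the 10 genes (lowest adjusted p 0.189, 0.758 and 0.947 at 0.3, 3 and 30 ppb). With 5 arrays per group the number of arrays limits the precision, and aurkb and pttg1 rest on a single probe.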

Other observations

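Among the genes of dividing cells, the replication genes split on the 3 unlike arrays in the way the arpp19 and ensa copies did. In replicates 3, 5 and 6 at 0.3 ppb the replicative helicase gene mcm2 differed from the same-numbered control by -5.27, -4.95 and -5.41, and mcm4 by -5.32, -5.17 and -5.52. Of the 10 targets in that list, mcm3 and mcm6 were the ones that lay above their controls on these arrays, by 1.84, 1.53 and 1.84 for mcm3 and by 1.64, 2.16 and 1.83 for mcm6. Both helicase subunits have a second copy in zebrafish, mcm3l and mcm6l, with synonyms in the reference table that mark them as maternal forms, and these copies were looked up after the values of mcm3 and mcm6 had been seen. On the same arrays mcm3l differed by -10.16, -8.67 and -8.88 and mcm6l by -8.13, -7.78 and -7.16. On the 0.3 ppb arrays of replicates 2 and 4, mcm3l differed by 0.86 and -0.39 and mcm6l by 1.00 and 0.23. These differences were not confined to the 3 unlike arrays for all of the genes. The copy mcm3l also differed by -5.94 and -4.32 at 3 ppb in replicates 3 and 6 and by -3.78 at 30 ppb in replicate 2. Likewise mcm3 lay above its control by 2.10 and 1.21 at 3 ppb in replicates 3 and 6 and by 1.39 at 30 ppb in replicate 3, and mcm6 by 1.13 at 3 ppb in replicate 4 and by 1.48 at 30 ppb in replicate 3. For mcm6l the differences at 3 and 30 ppb lay between -0.15 and 1.05. Of all spots, 2.70% and 10.4% were marked as outliers on the 3 ppb arrays of replicates 3 and 6. At 30 ppb the share was 5.81% in replicate 2 and 4.40% in replicate 3, and it was 0.37% at 3 ppb in replicate 4. The probes behind each mcm3l value were not examined, and the part of array quality in these differences was not tested.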
